A study of Homo sapiens with 6 samples.

Results

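The genes described are the 5 subunits of the transcription factor NF-kB (NFKB1, NFKB2, RELA, RELB and REL) and 5 genes that regulate the pathway or are regulated by it (NFKBIA, TNFAIP3, TNFAIP2, ICAM1 and RBCK1). They were taken by symbol from a table of 58735 genes, and all 10 were found. The RNA came from MDA-MB-231, a human cell line of triple-negative breast cancer, and was sequenced as 6 libraries. Of these, 3 were from cells transfected with DNAJC12v, whose genotype is given as DNAJC12 overexpression (overexpression replicates 1 to 3), and 3 from control cells that received an empty vector (replicates 1 to 3). DNAJC12 encodes a J-domain co-chaperone. The labels do not say whether the transfection was transient or stable, and name no separate cultures for the replicates, so p-values measure only the spread between these libraries, which may be technical.

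NF-kB is a dimer of Rel family proteins that is held in the cytoplasm by inhibitors of the IkB class. Receptors for tumour necrosis factor and interleukin-1 recruit ubiquitin ligases and the IKK kinases, which remove the inhibitor (canonical arm). In a separate, non-canonical arm the NFKB2 precursor is processed and then pairs with RELB. NF-kB induces genes of its own shut-off, among them NFKBIA and TNFAIP3, and in MDA-MB-231 the pathway is known to be active without added stimulus.

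Libraries held 17967283 to 18887497 counts, and 14520 genes passed the filter on low counts and were tested. DNAJC12 had 522, 523 and 492 counts in the overexpression libraries and 1, 0 and 0 with the empty vector. Of 10 markers of the cell line, 9 reached 1 CPM (counts scaled by library size and TMM factors to a common depth) in every library. The luminal markers ESR1, PGR and FOXA1 and the leukocyte marker PTPRC stayed below 1 CPM, and CD3E and MS4A1 had 0 counts. The other 7 of 10 luminal markers reached 1 CPM in every library. So did 2 of 10 leukocyte markers and 4 of 10 endothelial and fibroblast markers. The summed level of all 10 luminal markers was 600.1 to 1016 CPM with DNAJC12 and 929 to 1119 CPM with the vector. The summed level of 10 leukocyte markers was 9.17 to 20.4 CPM with DNAJC12 and 14.2 to 17.2 CPM with the vector. That of 10 endothelial and fibroblast markers was 62.9 to 89.5 CPM and 56.3 to 58.9 CPM, groups that did not overlap, while of its 5 tested genes 1 was called lower, 2 had a log2 fold change above 0 and the median was -0.06. Their part in the results was not tested. A change in RNA per cell and a change in the mix of cells cannot be told apart in such bulk samples. Overexpression replicate 2 stood apart from the rest along the GC content of transcripts. For most named genes whose fold change it moved strongly, values with and without it are given.

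Promoter windows of 300 bases, most of them upstream of a RefSeq transcript start (GRCh38.p14), were at hand for 9 of the 10 genes, all but RELB, in 13 windows. The kappaB consensus, the NF-kB recognition sequence, was searched on both strands, as was TGATGNAA, the core of the ATF4 response element. A kappaB match was in 6 of the 13 windows, which belong to 5 genes (NFKB1, NFKB2, REL, NFKBIA and TNFAIP3), and in 11.3% of 34943 windows of all genes. None held TGATGNAA, which 3.62% of all windows did. A match is a description of letters and says nothing of binding. The windows shown are those of 2 inhibitors and 1 subunit with matches and that of RBCK1, the only member called with TMM scaling alone. The RBCK1 window had no match to either motif and lies downstream of the start of the gene in the deposited coordinates. Capitals mark kappaB matches, and where 2 matches overlap they form a single run.
NFKBIA, chr14:35404700-35404999, minus strand: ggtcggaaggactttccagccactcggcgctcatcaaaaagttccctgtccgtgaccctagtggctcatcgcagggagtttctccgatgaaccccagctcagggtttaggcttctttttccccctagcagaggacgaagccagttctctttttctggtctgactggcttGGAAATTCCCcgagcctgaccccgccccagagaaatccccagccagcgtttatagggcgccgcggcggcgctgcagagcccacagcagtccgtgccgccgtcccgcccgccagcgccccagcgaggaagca
TNFAIP3, chr6:137867009-137867308, plus strand: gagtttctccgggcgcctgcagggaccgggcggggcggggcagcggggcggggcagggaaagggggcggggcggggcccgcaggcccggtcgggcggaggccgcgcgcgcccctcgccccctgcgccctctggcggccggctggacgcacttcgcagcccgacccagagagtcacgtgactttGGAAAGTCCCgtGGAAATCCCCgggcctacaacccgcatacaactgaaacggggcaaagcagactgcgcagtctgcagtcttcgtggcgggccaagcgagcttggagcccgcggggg
NFKB2, chr10:102394328-102394627, plus strand: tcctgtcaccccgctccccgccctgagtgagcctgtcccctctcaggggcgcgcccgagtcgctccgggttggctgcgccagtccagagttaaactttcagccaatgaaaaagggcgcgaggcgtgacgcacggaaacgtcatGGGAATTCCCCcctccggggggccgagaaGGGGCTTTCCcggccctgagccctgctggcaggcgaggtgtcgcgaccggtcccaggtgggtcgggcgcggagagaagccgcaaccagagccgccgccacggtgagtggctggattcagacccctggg
RBCK1, chr20:408049-408348, plus strand: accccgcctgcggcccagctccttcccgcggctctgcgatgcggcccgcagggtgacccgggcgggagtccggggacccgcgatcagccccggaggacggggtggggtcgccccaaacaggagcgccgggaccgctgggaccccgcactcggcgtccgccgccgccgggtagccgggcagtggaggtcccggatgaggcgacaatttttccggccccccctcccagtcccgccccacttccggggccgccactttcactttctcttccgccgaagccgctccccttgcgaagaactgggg

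RBCK1 was the only member called higher with DNAJC12 in the edgeR test with TMM scaling alone. It encodes HOIL-1, a subunit of the linear ubiquitin chain assembly complex (LUBAC), which attaches linear ubiquitin chains to the IKK scaffold and so passes receptor signals on to NF-kB. The gene (ENSG00000125826) lies on the plus strand of chromosome 20, from 407498 to 430966 in GRCh38. It had 336, 539 and 430.3 CPM in overexpression replicates 1 to 3 and 120 (replicate 1), 155 (replicate 2) and 156 (replicate 3) CPM with the empty vector. Every overexpression library lay above every empty vector library. Its mean went from 144 ± 20.2 to 435 ± 101 CPM (SD, n = 3), a 3.03-fold rise with a 95% interval of 2.10 to 4.37. The log2 fold change was 1.60 ± 0.24 SE, and the adjusted p was 0.0143 (edgeR, quasi-likelihood, Benjamini-Hochberg over all genes tested).

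Of the 9 members tested, 1 was called higher and 0 lower. Over all genes, 1.25% were called, 0.585% higher and 0.661% lower. The remaining member, REL, did not pass the filter. With no adjustment the edgeR p was under 0.05 in 3 members, all higher (RBCK1, RELB and NFKB1), where 7.25% of all genes were higher and 6.86% lower by that rule. The groups did not overlap in 4 tested members, all higher with DNAJC12 (RBCK1, RELB, NFKB1 and TNFAIP2), where 9.26% of all genes were higher and 10.8% lower without overlap. The log2 fold change was above 0 in 8 of the 9, and in 54.9% of all genes. Without overexpression replicate 2 it was above 0 in 5 of the 9, since NFKB2, RELA and ICAM1 turned. The median log2 fold change of the 9 was 0.25, and that of all tested genes 0.05. Without overexpression replicate 3 RBCK1 was not called (adjusted p = 0.0964), nor without empty vector replicate 1 (0.1255), 2 (0.0789) or 3 (0.0955). Its log2 fold change in the 6 fits without 1 library ran from 1.41 to 1.74.

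RBCK1 was the single member called with DESeq2 size factors (0.544% of all genes higher), by the DESeq2 Wald test (1.58%), with a filter of 1 CPM in 3 libraries (0.602%), with DNAJC12 left out of library sizes (0.585%) and by limma on log2(FPKM + 1) or log2(FPKM + 0.1) (0.594% and 0.61%). RELB was called beside it with no filter (1.34% of all genes higher) and without overexpression replicate 1 (0.95%), and RELB and NFKB1 without overexpression replicate 2 (12.1%). With 1 surrogate variable in the model 7 members were called higher, all tested ones but NFKBIA and TNFAIP3, as were 16.3% of all genes. In the 4 fits without RBCK1 among the calls, no member was called higher and few genes were. The share of all genes was 0.128% where overexpression replicate 3 was left out, and 0.101%, 0.141% and 0.107% where the left-out library was 1, 2 or 3 of the empty vector.

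**Figure D1:**
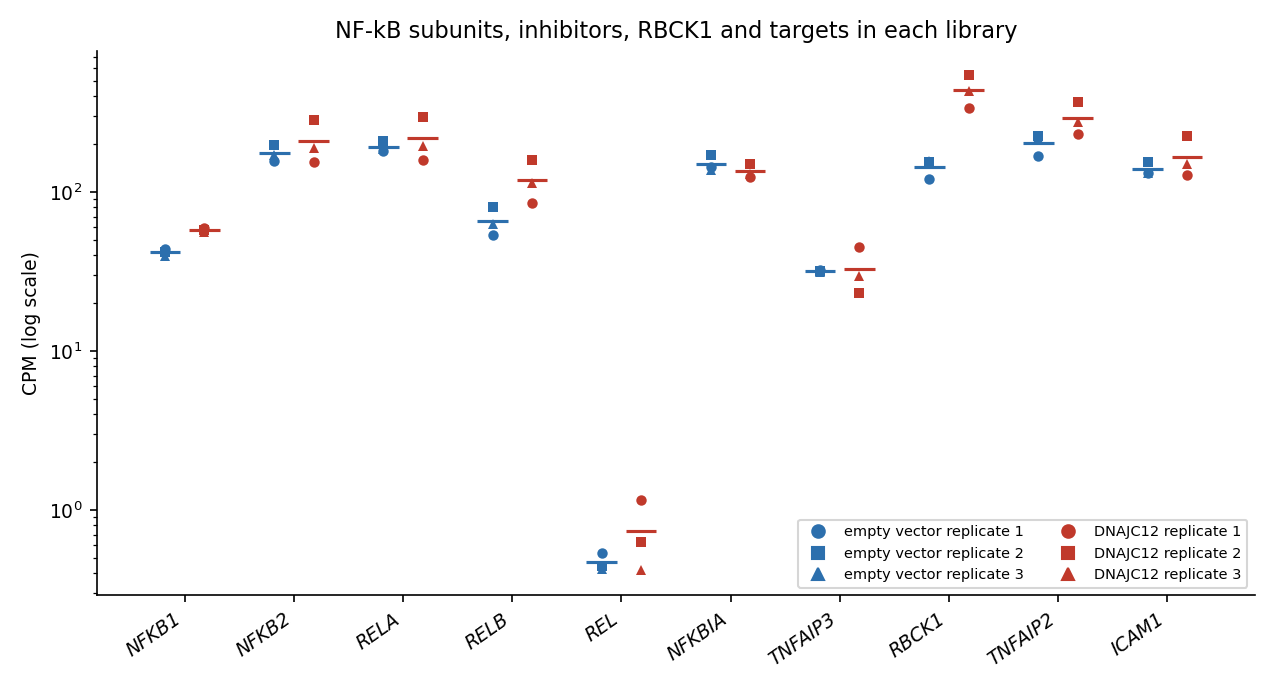
Level of each member in CPM (log axis) in the 6 libraries, empty vector in blue and DNAJC12 in red, with bars at the group means. RBCK1 goes from a mean of 144 to 435 CPM without overlap, RELB, NFKB1 and TNFAIP2 are also apart, and REL lies near or below 1 CPM in every library.

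The partners of RBCK1 in LUBAC were not called. RNF31, the catalytic subunit, had 20.5, 39.5 and 21.2 CPM with DNAJC12 and 32.4, 35.2 and 30.5 CPM with the vector. Its groups overlapped through overexpression replicate 2 alone, and its log2 fold change was -0.27 with a 95% interval of -0.92 to 0.37. Without both libraries numbered 2 it was -0.60 (-1.06 to -0.15), with an edgeR adjusted p of 0.0516. SHARPIN, the third subunit, had 77.9, 161 and 101 CPM against 92.6, 126 and 104 CPM, also overlapping, with a log2 fold change of 0.07 (-0.56 to 0.70). The sign of SHARPIN turned without overexpression replicate 2 (-0.27).

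The balance within LUBAC, per transcript length, was apart between the groups. RBCK1 made up 72.2, 67.1 and 72.5% of the summed FPKM (fragments scaled by transcript length and depth) of the 3 subunits with DNAJC12 and 42.9, 42.3 and 47.2% with the vector, and RNF31 3.47 ± 0.55% against 8.18 ± 1.01% (SD, n = 3). The log2 ratio of RBCK1 to RNF31 differed by 1.92 and that of RBCK1 to SHARPIN by 1.56, both apart in all libraries, with an exact two-sided permutation p of 0.1, the smallest that 3 against 3 libraries can give (0.14 adjusted over the 7 ratios computed). Each of these values contains RBCK1, so the lower share of RNF31 does not by itself show a fall of RNF31.

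The neighbour of RBCK1 on chromosome 20 rose as well. TRIB3, a stress-induced pseudokinase gene on the same strand, ends 9938 bases before RBCK1 starts. It had 409, 749.6 and 531 CPM with DNAJC12 and 60.0, 68.5 and 68.2 CPM with the vector, a log2 fold change of 3.10 ± 0.26 SE (edgeR adjusted p = 0.00117). Its groups were far apart, and overexpression replicate 2 was its highest library, as in RBCK1 and most other members. The next genes outwards were not called in the edgeR test: SOX12 had a log2 fold change of 0.11, NRSN2 of 0.27 and TBC1D20, on the opposite strand 4513 bases beyond RBCK1, of 0.22, although its groups did not overlap. SOX12 had 57.2, 91.9 and 62.6 CPM with DNAJC12 and 52.4, 77.2 and 66.7 CPM with the vector. NRSN2 had 111, 208 and 130 CPM against 125, 128 and 118 CPM. Overexpression replicate 2 was thus the highest library of SOX12 and of NRSN2, and their fold changes without it are not reported here. The log2 ratio of RBCK1 to TRIB3 per length fell by 1.48 from vector to DNAJC12, so the pair did not change by equal factors. Gene counts do not show whether reads ran from one gene into the next, and this was not tested. These neighbours were chosen after their values were seen.

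Across the 6 libraries, the tested protein-coding genes whose log2 CPM followed RBCK1 most closely were JDP2, a repressor of the AP-1 family (Pearson r = 0.998, log2 fold change 1.68), and MID1IP1 (0.997, 1.16). The points share 6 libraries and the GC trend of replicate 2, and the order is a description with no test. Among members RELB was the most like RBCK1 (r = 0.929). RBCK1 ranked 44th of the 85 called higher genes by log2 fold change and 12th by CPM with DNAJC12.

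RELB, the subunit of the non-canonical arm, was the next highest in fold change and did not pass the test. The gene (ENSG00000104856, chromosome 19, plus strand, 45001430 to 45038198) had 85.4, 159 and 114 CPM with DNAJC12 and 53.7, 79.8 and 62.8 CPM with the vector. The groups did not overlap, but overexpression replicate 1 stood only a little above empty vector replicate 2. Its log2 fold change was 0.87 ± 0.27 SE with a 95% interval of 0.26 to 1.47 and an edgeR adjusted p of 0.178. RELB did pass without overexpression replicate 1 (0.0430) or 2 (0.0340), without both libraries numbered 2 (0.00138) and after a correction for GC content (0.000226). It missed the threshold without overexpression replicate 3 (edgeR adjusted p = 0.5005) or empty vector replicate 1 (0.488), 2 (0.325) or 3 (0.508). The DESeq2 Wald test (0.0795) and limma on FPKM (lowest adjusted p 0.225) did not call it either. Without overexpression replicate 2 its log2 fold change was 0.61.

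NFKB1, the gene of the canonical subunit precursor, showed the tightest groups of the subunits. It had 59.5, 57.8 and 56.1 CPM with DNAJC12 and 43.5, 42.1 and 39.3 CPM with the vector. The groups were far apart for their spread (57.8 ± 1.68 against 41.6 ± 2.10 CPM, SD, n = 3), and the log2 fold change of 0.47 ± 0.19 SE had an edgeR adjusted p of 0.299. It passed without overexpression replicate 2 (0.0416), where 12.1% of all genes were called higher, and after GC correction (0.00608, 10.2%). It missed the threshold without both libraries numbered 2 (edgeR adjusted p = 0.0863) and in the other fits without 1 library (0.398 to 0.712). The gene (ENSG00000109320) lies on chromosome 4, plus strand, 102501329 to 102617302.

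NFKB2, the precursor of the non-canonical partner of RELB, had 155, 282 and 188 CPM with DNAJC12 and 157, 198 and 169 CPM with the vector. RELA, the main transactivating subunit, had 158, 297 and 196 CPM against 181, 208 and 185 CPM. In both genes overexpression replicate 2 was the highest and replicate 1 the lowest library of all, so the groups overlapped. Their log2 fold changes were 0.25 (95% interval -0.31 to 0.82) and 0.18 (-0.38 to 0.75). Without overexpression replicate 2 they were -0.03 and -0.11. NFKB2 (ENSG00000077150) lies on chromosome 10, plus strand, 102394110 to 102402529, and RELA (ENSG00000173039) on chromosome 11, minus strand, 65653596 to 65663094. An opposite-strand gene overlaps RELA, with at most 3.48% of its counts in any library.

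REL, the subunit best known from lymphoid cells, was read only at trace level. It had 23, 10 and 8 counts with DNAJC12 and 10, 8 and 8 with the vector, or 0.418 to 1.15 CPM, and was not tested. The gene (ENSG00000162924) lies on chromosome 2, plus strand, 60881521 to 60931610.

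In the make-up of the subunit transcripts, per length, 3 of the 5 shares were apart between groups. RELB held 27.8, 29.3 and 30.1% of the summed FPKM of the 5 subunits with DNAJC12 and 19.1, 22.8 and 21.0% with the vector. NFKB2 held 34.3 ± 0.68% against 38.1 ± 0.31%, and RELA 29.3 ± 0.98% against 34.3 ± 1.33% (SD, n = 3). The shares of a library add up to a fixed whole, so a higher share of RELB lowers the others. They are not separate results, and the lower shares of NFKB2 and RELA do not by themselves show a fall of these genes, whose levels overlapped. The share of NFKB1 overlapped, at 9.39, 5.16 and 7.22% with DNAJC12 and 7.49, 5.83 and 6.37% with the vector, as did that of REL, which stayed below 0.09%. The log2 ratio of RELB to RELA was -0.04, -0.05 and 0.06 with DNAJC12 and -0.90, -0.53 and -0.71 with the vector. This ratio and that of RELB to NFKB2 differed by 0.71 and 0.63, each with an exact two-sided permutation p of 0.1, the smallest possible here (0.14 adjusted over 7 ratios). A ratio within a library shows unequal change of its genes and not which of them changed.

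**Figure D2:**
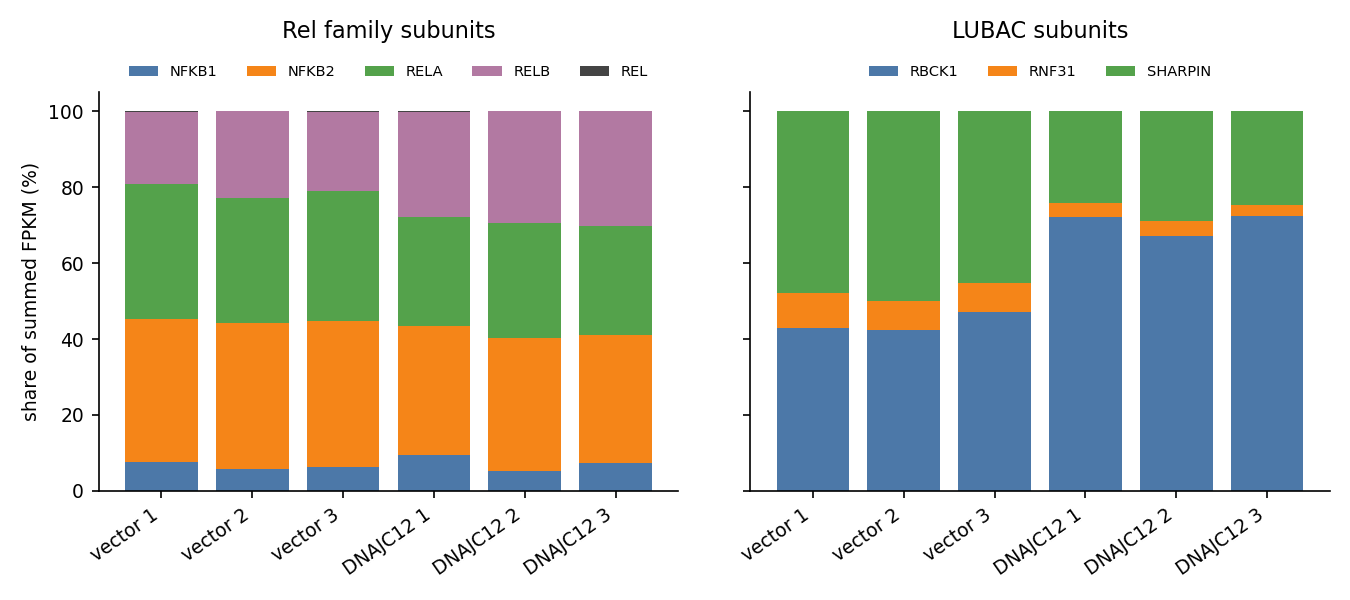
Share of each gene in the summed FPKM of the 5 Rel subunits (left) and of the 3 LUBAC subunits (right) in each library, as stacked bars from 0 to 100%. RELB is at 19.1 to 22.8% in the vector libraries and 27.8 to 30.1% in the DNAJC12 libraries, and RBCK1 at 42.3 to 47.2% and 67.1 to 72.5%.

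The inhibitors NFKBIA and TNFAIP3, whose genes are direct NF-kB targets and held kappaB matches in the windows above, were not called. NFKBIA encodes IkB-alpha, which retains NF-kB in the cytoplasm. It had 124, 151 and 130.0 CPM with DNAJC12 and 143, 170 and 137 CPM with the vector, overlapping groups with a log2 fold change of -0.15 and a 95% interval of -0.60 to 0.29. TNFAIP3 encodes the ubiquitin-editing enzyme A20, which ends signalling from the receptor complexes. It had 44.9, 23.1 and 29.6 CPM with DNAJC12 against 32.3, 31.9 and 31.5 CPM with the vector. The vector libraries were nearly equal (31.9 ± 0.40 CPM, SD, n = 3), whereas the DNAJC12 libraries lay on both sides of them (32.6 ± 11.2 CPM). The log2 fold change of TNFAIP3 was 0.03, with an interval of -0.57 to 0.63 and a sign that turned without overexpression replicate 1 (-0.28). NFKBIA (ENSG00000100906) lies on chromosome 14, minus strand, 35401511 to 35404749, and TNFAIP3 (ENSG00000118503) on chromosome 6, plus strand, 137867188 to 137883312. An antisense gene overlaps TNFAIP3, with at most 2.88% of its counts.

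TNFAIP2 and ICAM1, known targets of the pathway, were not called either. TNFAIP2, which encodes a protein of membrane nanotube formation, had 231, 367 and 276 CPM with DNAJC12 and 168, 226 and 219 CPM with the vector. The groups did not overlap, by a margin of a few CPM between overexpression replicate 1 and empty vector replicate 2. Its log2 fold change was 0.51 ± 0.23 SE (-0.01 to 1.04), with an edgeR adjusted p of 0.369, and 0.00154 after GC correction. Without overexpression replicate 2 its log2 fold change was 0.31. ICAM1, the adhesion molecule that binds leukocyte integrins, had 127, 223 and 149 CPM against 132, 155 and 132 CPM, overlapping, with a log2 fold change of 0.25 (-0.29 to 0.80), and -0.02 without overexpression replicate 2. TNFAIP2 (ENSG00000185215) lies on chromosome 14, plus strand, 103123442 to 103137439, and ICAM1 (ENSG00000090339) on chromosome 19, plus strand, 10270835 to 10286615.

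Per length, RBCK1 moved from the middle of the members to the top. With the vector NFKBIA was highest at 62.9 ± 7.45 FPKM, followed by TNFAIP2 (40.4), NFKB2 (38.8), ICAM1 (37.5), RBCK1 (35.5) and RELA (34.8), 5 genes whose ranges overlapped. RELB (21.4 FPKM), NFKB1 (6.61), TNFAIP3 (6.28) and REL (0.04) came below, and the ranges of NFKB1 and TNFAIP3 overlapped. With DNAJC12 RBCK1 was highest at 107 ± 25.7 FPKM (SD, n = 3), and its lowest library, at 82.3, was above every other member in any library. TNFAIP2 (57.3), NFKBIA (56.2), NFKB2 (46.0), ICAM1 (44.5), RELA (39.3) and RELB (39.0) then formed a run of overlapping ranges, with NFKB1 at 9.13 and TNFAIP3 at 6.37.

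The spread within groups followed the GC content of the transcripts in most members. In overexpression replicate 2, RELA was 0.76 above the mean of replicates 1 and 3 on the log2 CPM scale, NFKB2 0.72, ICAM1 0.70, RELB 0.69, TNFAIP2 0.54 and RBCK1 0.50, all with GC contents of 57.7 to 65.0%. NFKBIA (56.0% GC) was 0.25 above, and NFKB1 (49.6%) was level with them. TNFAIP3, of nearly the same GC content as NFKB1 (49.9%), was 0.65 below, away from the trend of other genes. Over the 9 members Pearson's r between GC content and this gap was 0.833, and Spearman's rho 0.55, as a description of members that share their libraries. Over all tested genes r was 0.783. In empty vector replicate 2 the gaps ran up to 0.46 in RELB, with TNFAIP3 level, and that of NFKBIA (0.27) was about as large as in overexpression replicate 2.

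**Figure D3:**
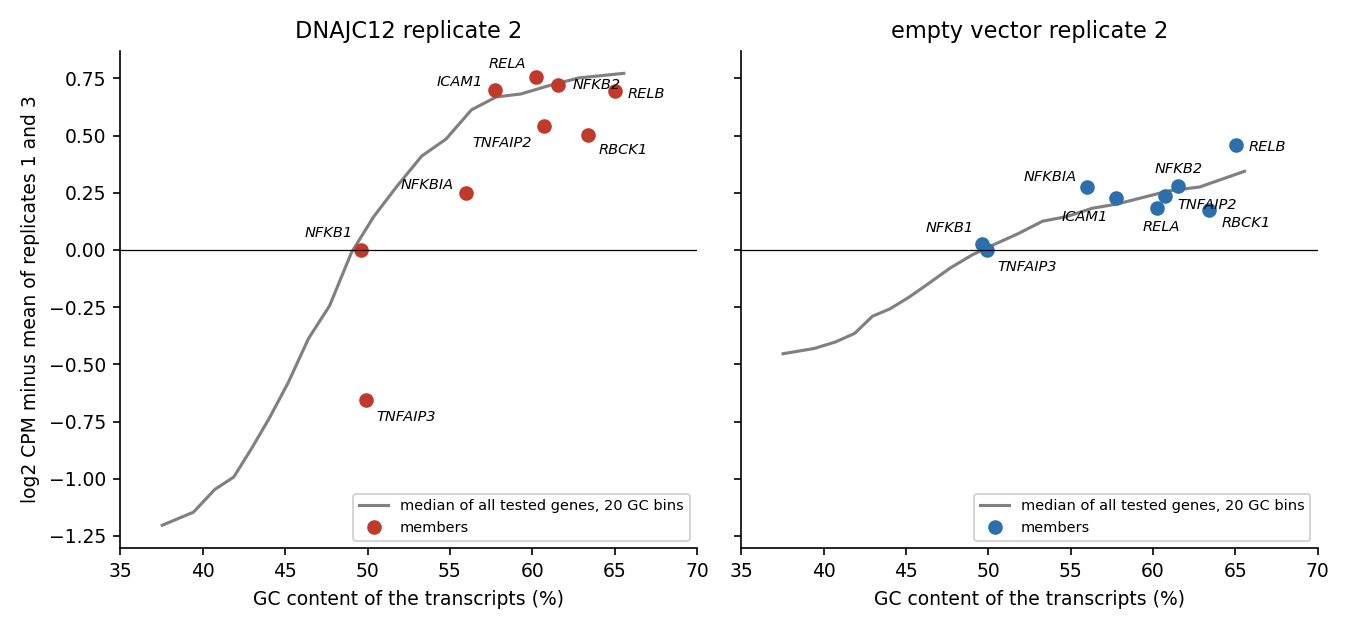
Gap of each library numbered 2 to the mean of replicates 1 and 3 of its group (log2 CPM) against transcript GC content (%), with the members as points and the median of all tested genes in 20 GC bins as a line. Most members lie near the line, and TNFAIP3 is 0.65 below zero in DNAJC12 replicate 2.

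After a correction of each library for its GC trend, the median SD of the members among overexpression libraries was 0.08 on the log2 scale, from 0.42 before, and that of TNFAIP3 was 0.49, from 0.48. In that fit 6 of the 9 tested members were called higher (RBCK1, RELB, TNFAIP2, NFKB1, NFKB2 and ICAM1) and 0 lower, against 10.2% and 9.77% of all genes. The edgeR adjusted p of NFKB2 and ICAM1 were 0.0326 and 0.0329 there, and RELA missed the threshold at 0.0980. Without both libraries numbered 2, RBCK1 and RELB were called, against 10.3% of all genes called higher. Fold changes moved little under the correction: RBCK1 had a log2 fold change of 1.64, RELB of 0.87 and NFKBIA of -0.07.

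**Figure D4:**
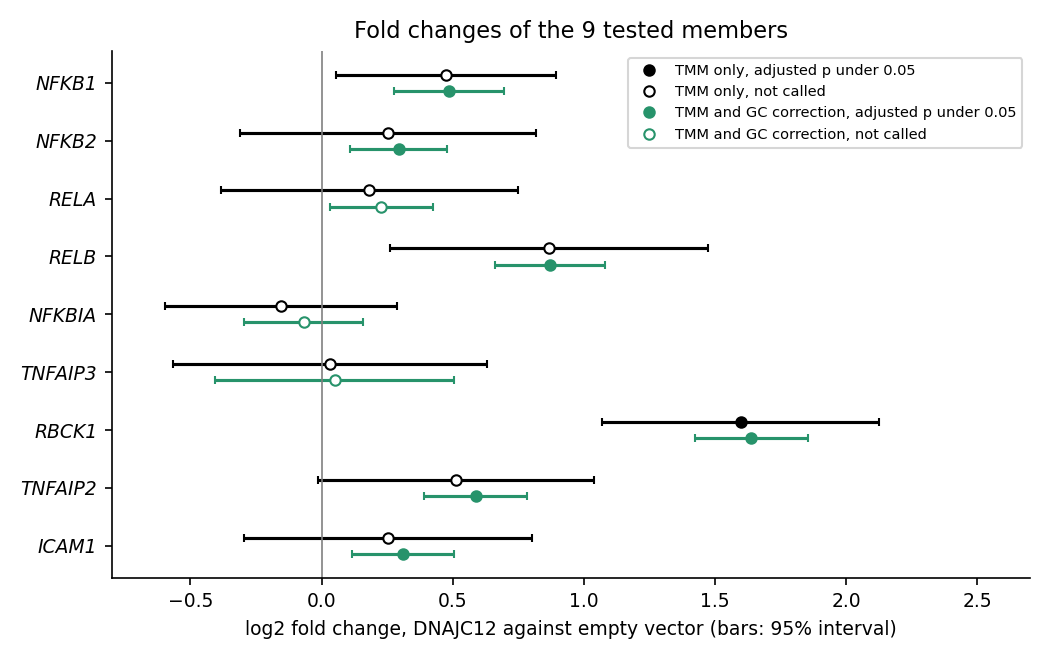
Log2 fold change (DNAJC12 against empty vector) of the 9 tested members with 95% intervals, by the edgeR test with TMM scaling alone (black) and with GC correction (green), filled where called. RBCK1 is called in both (1.60 and 1.64), and 5 further members are called only with the correction, at nearly the same fold changes and with shorter intervals.

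The rest of the pathway was described with 95 further genes in 7 lists, 85 of them tested. Of these 1 rose, 6 fell and 78 were not called, where 0.585% of all tested genes were called higher and 0.661% lower, and their median log2 fold change was 0.01. None of 5 other IkB proteins was called, nor any of 14 IKK and upstream kinases, 11 adaptors and ubiquitin ligases or 10 deubiquitinases and A20 partners. In these 4 lists 1 gene had an edgeR p under 0.05 before adjustment. It was IRAK1, a kinase of the interleukin-1 receptor complex, at 364, 739.9 and 448 CPM with DNAJC12 and 267, 346 and 285 CPM with the vector. The groups did not overlap, and the log2 fold change of 0.79 had an adjusted p of 0.233, and 0.000491 after GC correction. Without overexpression replicate 2 the log2 fold change of IRAK1 was 0.44. The most abundant others had log2 fold changes of 0.23 (NFKBIE) and 0.41 (NFKBIB) among IkB proteins, 0.19 (IKBKE, an IKK-related kinase) and 0.01 (TRAF2, a receptor adaptor). TNIP1 and TNIP2, which bind A20, had -0.09 and 0.22. Without overexpression replicate 2 these 6 values were -0.045, 0.25, -0.12, -0.27, -0.37 and -0.042 in the same order.

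Among 5 tested ligands, IL1B, interleukin-1 beta, fell in the edgeR test (adjusted p = 0.00031). It had 25.2, 24.5 and 27.3 CPM with DNAJC12 and 239, 199 and 214 CPM with the vector, groups far apart, with a log2 fold change of -3.08 ± 0.21 SE. TNFSF12, the ligand TWEAK, was not called, with a log2 fold change of -0.0048, and -0.37 without overexpression replicate 2. Of 14 tested receptors, TNFRSF11A, the receptor RANK, fell, from 8.58, 7.73 and 8.26 CPM with the vector to 3.31, 2.47 and 2.40 CPM, a log2 fold change of -1.58 ± 0.27 SE (adjusted p = 0.029). It was not called by limma on FPKM (lowest adjusted p 0.0700), nor without overexpression replicate 3 or any empty vector replicate (0.124 to 0.235). The abundant receptors TNFRSF1A, the main receptor of tumour necrosis factor, and TNFRSF12A, the TWEAK receptor, had log2 fold changes of -0.06 and 0.34 (-0.36 and 0.028 without overexpression replicate 2) and were not called.

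Of 26 tested target genes, 1 rose and 4 fell (0.585% and 0.661% over all genes), with a median log2 fold change of -0.18. CXCL2, a neutrophil chemokine, had 256, 177 and 249 CPM with DNAJC12 and 111, 115 and 97.1 CPM with the vector. The chemokine CCL20 had 0.948 to 1.72 CPM against 5.40 to 7.94 CPM. The growth factors CSF2 and CSF3 had 47.4 to 66.1 and 6.41 to 11.5 CPM with DNAJC12 against 118 to 146 and 34.5 to 45.9 CPM. BCL2A1, an antiapoptotic gene, had 0.200, 0 and 0.470 CPM against 8.16, 4.39 and 3.78 CPM. None of these 5 overlapped between groups. Of the 26 tested targets, 4 were higher and 8 lower without overlap, where 9.26% of all genes were higher and 10.8% lower. The most abundant targets, IER3 and SDC4, had log2 fold changes of 0.30 and -0.06 (0.090 and -0.16 without overexpression replicate 2). Leaving out overexpression replicate 3 ended the edgeR call of CXCL2 (adjusted p = 0.272), CCL20 (0.0819), CSF2 (0.196) and CSF3 (0.0922). Leaving out empty vector replicate 1 ended those of CXCL2 (0.234), CCL20 (0.0931), CSF2 (0.146), CSF3 (0.0700) and BCL2A1 (0.0931). Without empty vector replicate 2, CXCL2 (0.210), CSF2 (0.137) and CSF3 (0.0516) were not called, and without replicate 3, CXCL2 (0.279), CCL20 (0.0778), CSF2 (0.135) and CSF3 (0.0555). CXCL2 was also lost with DESeq2 size factors (0.0511) and by limma on FPKM (lowest adjusted p 0.0599).

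**Figure D5:**
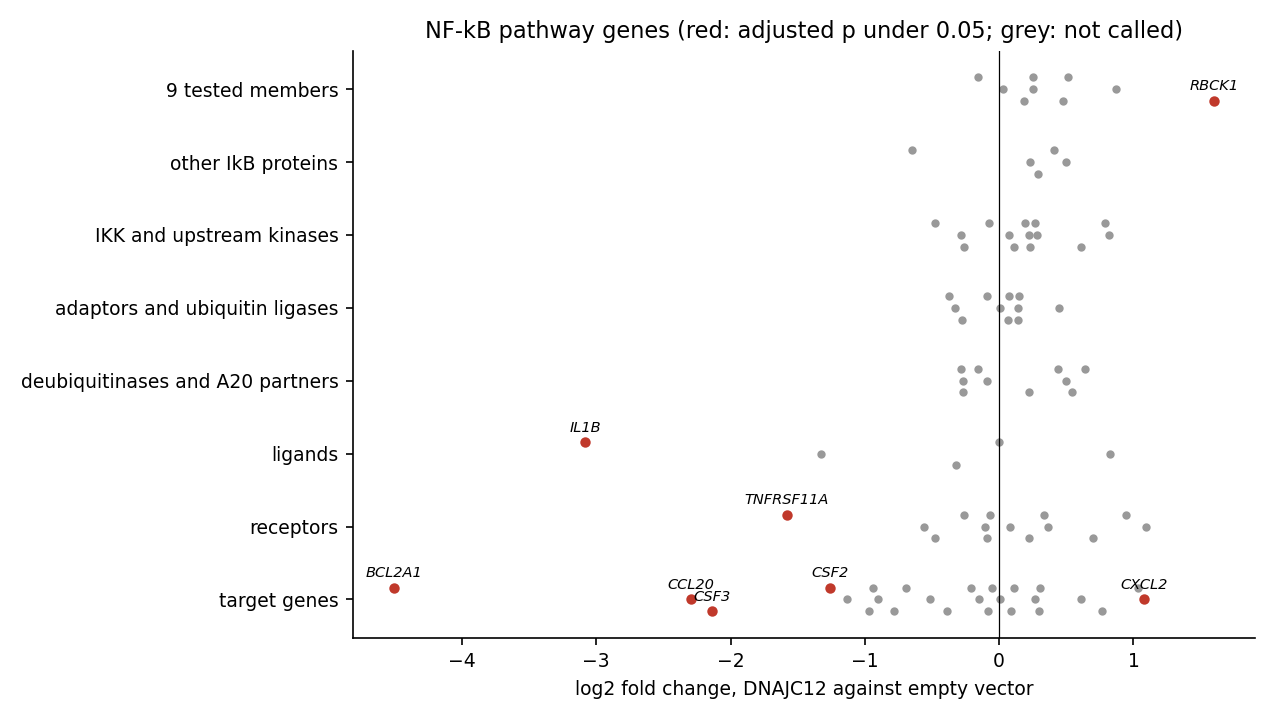
Log2 fold change (DNAJC12 against empty vector) of every tested member and pathway gene, 1 point a gene, in rows by role, red where called and grey where not. The calls are RBCK1 at 1.60 and CXCL2 at 1.08 on the higher side, and 6 ligand, receptor and target genes on the lower side.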

How the data were processed

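The counts per gene and the FPKM per gene were deposited by the authors as 2 tables of 58735 genes, with 1 column a library. The aligner was HISAT2 2.0.5 and the build hg19, per the submitters' processing notes. All gene coordinates in the tables equal those of GENCODE 29 on GRCh38, so they are given as GRCh38. How reads were counted, and whether by strand, is not given in the sources used here. Groups were compared on the counts in R 4.3.3 by quasi-likelihood in edgeR 4.0.16 (TMM, filterByExpr with a minimum count of 10 and a minimum total of 15, robust dispersions), adjusted by Benjamini-Hochberg over 14520 genes at a threshold of 0.05. Genes not tested held 0.129% of counts. The common biological coefficient of variation was 26.6%. An SE is the fold change divided by the root of F. FPKM served for levels between genes and, with limma 3.58.1, for an alternative on log2(FPKM + 1) or log2(FPKM + 0.1), filtered at 0.5 in 3 libraries; a pseudocount understates changes of low genes. Other alternatives were DESeq2 1.42.0, 1 surrogate variable (sva 3.50.0), GC offsets (loess, span 0.3), a replicate block, other filters and left-out libraries. GC content came from GENCODE 29 transcripts. Several of the fits were also run on simulated data, whose outcome is not reported here. No 2 libraries of a group agreed within sampling noise (chi-square per degree of freedom at least 8.44). The members, lists and alternatives were chosen with earlier results of these data known. Named are all members and, per list, up to 5 called genes and the 2 of highest FPKM, and the genes most like RBCK1 across libraries, of which not all are reported here. SOD2 has 2 rows, and the one with more counts was used.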

Additional observations from a re-analysis of the deposited data

How the results depend on the processing

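RBCK1 had a log2 fold change above 0 in all 18 alternatives and was called in 14. The number of members called higher, 1 as reported, was 2 with no filter or without both libraries numbered 2, 6 after GC correction, 7 with 1 surrogate variable, and 0 to 3 without 1 library; none was called lower in any fit. Genes called over the whole table, 181 as reported, numbered 523 by DESeq2, 688 with no filter, 2903 after GC correction, 2754 without both libraries numbered 2, 4748 with 1 surrogate variable and 25 to 3366 without 1 library. Pathway genes called higher, 1 as reported, were 0 with DESeq2 size factors or limma on FPKM, 2 with no filter, 13 after GC correction, 12 without both libraries numbered 2, 21 with 1 surrogate variable and 0 to 13 without 1 library. Those called lower, 6 as reported, were 10 by DESeq2, 17 after GC correction, 12 without both libraries numbered 2, 20 with 1 surrogate variable and 1 to 15 without 1 library.

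With the replicate block, 1937 genes, 3 members higher (RELB, RBCK1 and TNFAIP2), and 6 higher and 13 lower pathway genes were called. With block and GC correction these were 3326, 6, 12 and 16. The totals of all genes are for both directions. Shares of all genes called higher and lower in these fits are not reported here, so the counts cannot be judged against them. Deviations of same-numbered libraries correlated at 0.448, 0.585 and 0.03, and overexpression replicate 3 was closest to empty vector replicate 1 (0.224). The deviations within a group of 3 libraries depend on each other, so these values cannot decide whether the numbers pair the libraries.

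Signs turned only in genes with no call in the fit concerned. Without both libraries numbered 2, RELA was at -0.059, SHARPIN -0.14 and TRAF2 -0.13. TNFAIP3 was at -0.021 with the block, -0.00045 with block and GC correction, -0.022 and -0.031 by limma on FPKM and -0.080 with the surrogate variable. TRAF2 was at -0.023 with no filter, -0.024 with the block and -0.029 and -0.032 by limma. TNFSF12 was at 0.015 with block and GC correction, 0.018 after GC correction and 0.016 with the surrogate variable. Fits without 1 library ran from -0.028 to 0.42 for NFKB2, -0.11 to 0.36 for RELA, -0.28 to 0.23 for TNFAIP3, -0.018 to 0.41 for ICAM1, -0.045 to 0.38 for NFKBIE, -0.12 to 0.34 for IKBKE, -0.27 to 0.27 for SHARPIN, -0.27 to 0.18 for TRAF2, -0.37 to 0.090 for TNIP1, -0.042 to 0.39 for TNIP2, -0.37 to 0.18 for TNFSF12, -0.36 to 0.11 for TNFRSF1A and -0.16 to 0.033 for SDC4. The cause was not tested. REL, at 8 to 23 counts a library, is too shallow for a comparison.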
